A study of Mus musculus with 18 samples.

Results

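The genes described here encode the enzymes and regulators of cholesterol and fatty acid synthesis, 33 symbols that were all found among the 34591 gene symbols of the count files. They were taken by name from a list, which was chosen with earlier results of these data known. All 33 passed the filter on low counts in every comparison, and the lowest count of any of them in any library was 177 reads. By role they were 3 regulators, 8 genes of the mevalonate and isoprenoid steps, 11 of the squalene and sterol steps, 1 sterol carrier, 4 of fatty acid synthesis, and 6 of desaturation, elongation and lipid assembly. The list does not hold every gene of these pathways.

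Poly(A) RNA was sequenced from 4T1 cells, a mouse mammary carcinoma line kept in RPMI medium with 10% serum, in 18 libraries that form 6 groups of 3. Parental cells were given 2 ng/mL recombinant human TGFb1 in fresh medium or fresh medium alone, each for 24 h. The other 4 groups were lines selected with puromycin after transduction with a lentiviral vector for Wisp1, a secreted protein of the CCN family, or with an empty vector (EV). Each line was grown on dishes coated with collagen type I and on plastic, to subconfluence.

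Each group came from 1 parental or 1 stable line, so the spread between libraries is that between cultures and may be technical. Gene counts per library ran from 37552858 to 94401699. Levels are in CPM, a gene's count scaled to library size, with TMM factors over all libraries and no correction for gene length, so they were compared between libraries and not between genes. A change was called at an adjusted p under 0.05 in edgeR's quasi-likelihood test, adjusted by Benjamini-Hochberg over all genes of a comparison, and every adjusted p below comes from that test unless another is named. Wisp1 itself was at 1054 to 1120.3 CPM in the Wisp1 line on collagen, against 14.1 to 16.1 CPM in EV, and at 897 to 1066 CPM in the Wisp1 line on plastic, against 36.8 to 72.1 CPM in EV. The 6 epithelial markers summed to 3174 to 5846 CPM per library, whereas 5 endothelial markers summed to at most 0.476 CPM.

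Cells build cholesterol from acetyl-CoA through mevalonate, isoprenoid diphosphates, squalene and lanosterol, and they build fatty acids from the same precursor. The transcription factors SREBP1 and SREBP2, encoded by Srebf1 and Srebf2, drive the genes of these pathways. When membrane sterol is plentiful, the protein encoded by Insig1 holds the SREBP precursors in the endoplasmic reticulum, and Insig1 is itself an SREBP target. SREBP2 is best known for the cholesterol genes and SREBP1 for the fatty acid genes, and both are known to act at promoters together with NF-Y and Sp1.

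Promoters from RefSeq (build GRCm38.p6) matched 26 of the 33 genes, 1 of them, Sc4mol, through its current symbol Msmo1. The counts were made on mm9, so these positions were not joined to them. In the 250 bases before the start, the NF-Y box CCAAT was found on either strand of at least 1 listed promoter in 20 of the 26 genes, against 37.5% of all genes with a promoter in the table. The GC box GGGCGG was also found in 20 of 26, against 35.4%, and the E-box CACGTG in 4 of 26, against 6.86%. A strict sterol element, TCACNCCAC, was found in 1 of 26, Hmgcs1, against 1.22% of all genes. These are counts of letters, not of bound sites.

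Stretches of 100 bases are given for 4 genes that were lower on collagen by at least 2-fold in both lines and for 2 that were called in neither, Dhcr7 and Fasn. Each is the stretch, within those 250 bases, with the most bases of CCAAT or TCACNCCAC that cuts no match. GC boxes and E-boxes were not used in that choice and are not marked. For Dhcr7 the stretch belongs to the third of its listed starts, the first of them with either motif. Each is written in the gene's own direction, and capitals mark CCAAT or its reverse complement ATTGG and, in Hmgcs1, TCACNCCAC. Both kinds of gene carry the NF-Y box. Stretches were taken only from promoters with CCAAT or TCACNCCAC, so the boxes shown cannot be used to compare the 2 kinds of gene. In Fasn 2 of the 3 boxes overlap.
Hmgcs1, chr13:119690214-119690313, plus strand: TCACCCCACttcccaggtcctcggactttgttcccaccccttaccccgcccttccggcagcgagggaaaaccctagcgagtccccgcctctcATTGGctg
Idi1, chr13:8885506-8885605, plus strand: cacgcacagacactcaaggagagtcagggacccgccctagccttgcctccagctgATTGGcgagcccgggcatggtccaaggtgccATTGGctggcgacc
Cyp51, chr5:4104698-4104797, minus strand: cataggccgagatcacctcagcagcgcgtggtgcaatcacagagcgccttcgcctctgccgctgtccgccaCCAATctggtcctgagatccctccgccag
Hsd17b7, chr1:169969206-169969305, minus strand: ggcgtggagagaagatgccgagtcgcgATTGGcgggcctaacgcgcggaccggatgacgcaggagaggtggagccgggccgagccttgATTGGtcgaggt
Dhcr7, chr7:143830114-143830213, plus strand: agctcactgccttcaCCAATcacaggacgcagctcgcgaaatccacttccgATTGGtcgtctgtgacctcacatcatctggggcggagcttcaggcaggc
Fasn, chr11:120824548-120824647, minus strand: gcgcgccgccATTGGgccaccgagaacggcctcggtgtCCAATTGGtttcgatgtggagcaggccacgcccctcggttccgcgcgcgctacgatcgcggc

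Among the comparisons tested, the clearest difference in these genes was between substrates. On collagen, 27 of the 33 genes were lower than on plastic in the Wisp1 line and 29 of 33 in the EV line, and none was called higher in either. Over all genes tested, 19.1% were called lower and 21.3% higher in the Wisp1 line, and 17.3% lower and 19.2% higher in the EV line. The 27 genes called lower in the Wisp1 line were all called lower in the EV line too, which added Ebp and Ggps1. The median log2 change of the 33 was −0.64 in the Wisp1 line and −0.72 in the EV line, beside 0.01 and 0.001 over all genes tested in the same lines. In these bulk samples, fewer cells expressing a gene and less RNA per cell cannot be told apart.

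A fall of at least 2-fold was found for 8 of the 33 genes in the Wisp1 line, against 0.946% of all genes tested. In the EV line it was found for 9 of 33, against 1.19%. Every collagen library lay below every plastic library for 28 of the 33 genes in the Wisp1 line and 30 of 33 in the EV line. The same held for 28.7% and 26.9% of all genes tested. Together the 33 genes took up 0.358 to 0.439% of all gene counts in the Wisp1 line on collagen, against 0.553 to 0.613% on plastic, and 0.35 to 0.404% in the EV line on collagen, against 0.576 to 0.607% on plastic.

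**Figure D1:**
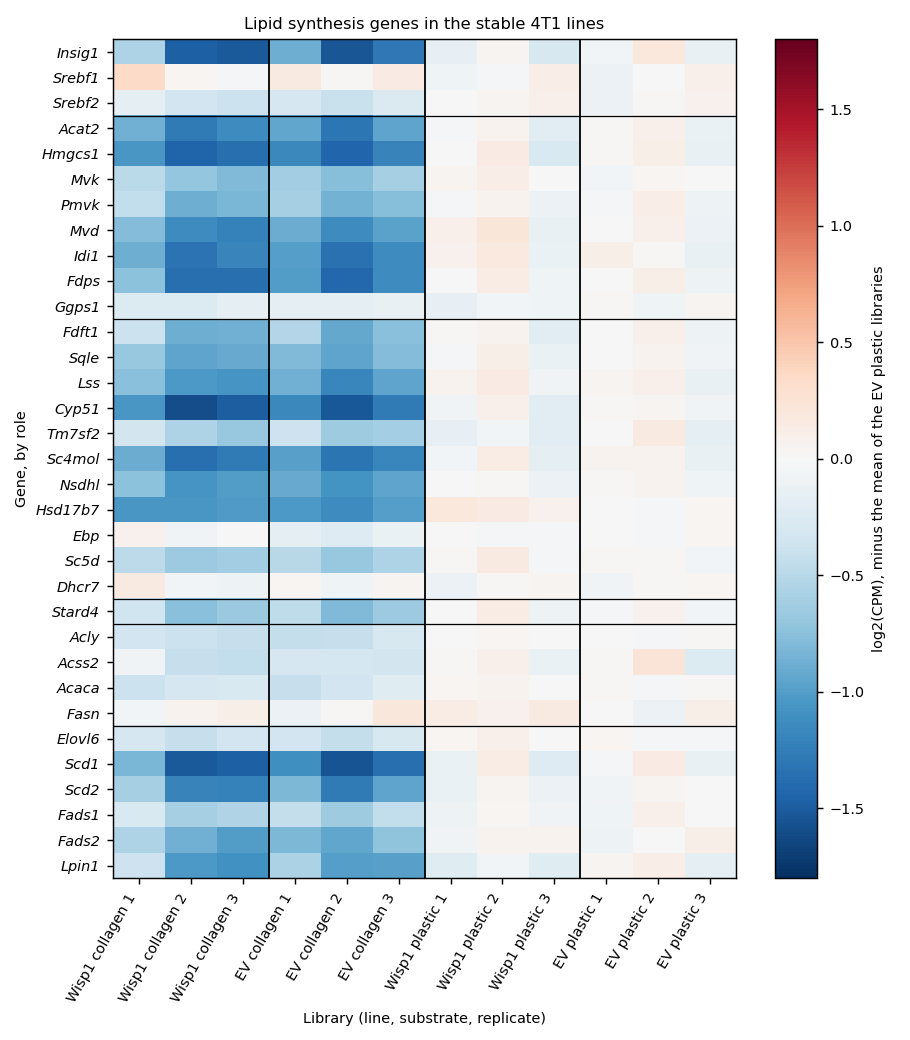
Each row is a gene, ordered by role, and each column a library of the stable lines; colour is log2(CPM) minus the mean of the 3 EV libraries on plastic. The 6 collagen columns are blue for most rows, while the rows of Srebf1, Dhcr7, Ebp, Ggps1 and Fasn stay near the colour of 0.

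Among the regulators, Insig1 and Srebf2 were lower on collagen in both lines, and Srebf1 was called in neither. Insig1 had 95.8, 51.1 and 49.3 CPM in the Wisp1 line on collagen, against 128, 146 and 115 CPM on plastic, and 76.5, 48.4 and 57.7 CPM in the EV line on collagen, against 136, 161 and 128 CPM on plastic. All 6 collagen libraries were below all 6 plastic libraries, and Insig1 was 1.93-fold lower in the Wisp1 line (adjusted p = 0.018) and 2.29-fold lower in the EV line (adjusted p = 0.0067). Srebf2 had 179.9, 159 and 154 CPM in the Wisp1 line on collagen, against 203, 209 and 215 CPM on plastic, and 163, 153 and 169 CPM in the EV line on collagen, against 188, 204 and 213 CPM on plastic. Srebf2 moved less, being 1.25-fold lower in the Wisp1 line (adjusted p = 6.7e-04) and 1.22-fold lower in the EV line (adjusted p = 0.0015). Srebf1 had 159, 127 and 123 CPM in the Wisp1 line on collagen, against 118, 123 and 135 CPM on plastic, and 140.0, 127 and 139 CPM in the EV line on collagen, against 116, 126 and 134 CPM on plastic. The Srebf1 libraries of the 2 substrates overlapped, with no call in the Wisp1 line (log2 change 0.15 ± 0.08 SE, adjusted p = 0.17) or the EV line (0.14 ± 0.08 SE, adjusted p = 0.21). The call of Insig1 in the Wisp1 line ended without Wisp1 plastic replicate 2 (adjusted p = 0.055) and without Wisp1 collagen replicates 2 and 3 (0.058 and 0.056). It also ended with only the 6 libraries of that line in the fit (adjusted p = 0.064) and with all 18 (0.073). Srebf2 was not called with all 18 libraries in the fit, at an adjusted p of 0.062 in the Wisp1 line and 0.1 in the EV line.

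The mevalonate and isoprenoid steps fell in nearly every gene, 7 of 8 genes in the Wisp1 line and 8 of 8 in the EV line, with log2 changes that ran from −1.21 to −0.10 in the Wisp1 line and from −1.23 to −0.13 in the EV line. The pathway starts with the cytosolic thiolase Acat2 and the HMG-CoA synthase Hmgcs1. Acat2 had 67.8, 51.1 and 56.4 CPM in the Wisp1 line on collagen, against 121, 128 and 107 CPM on plastic, and 64.2, 50.1 and 63.8 CPM in the EV line on collagen, against 126, 131 and 113 CPM on plastic. Hmgcs1 had 95.4, 73.1 and 77.2 CPM in the Wisp1 line on collagen, against 199, 219 and 163 CPM on plastic, and 88.4, 73.8 and 86.1 CPM in the EV line on collagen, against 201, 213 and 179.8 CPM on plastic. Both genes had all collagen libraries below all plastic libraries, Acat2 being 1.99-fold lower in the Wisp1 line (adjusted p = 6.6e-05) and 2.04-fold lower in the EV line (adjusted p = 5.5e-05) and Hmgcs1 2.31-fold lower in the Wisp1 line (adjusted p = 3.3e-05) and 2.35-fold lower in the EV line (adjusted p = 3.1e-05). The kinases Mvk and Pmvk, which phosphorylate mevalonate in turn, had smaller folds. Mvk was 1.6-fold lower in the Wisp1 line (adjusted p = 9.4e-06) and 1.55-fold lower in the EV line (adjusted p = 1.5e-05), and Pmvk 1.56-fold lower in the Wisp1 line (adjusted p = 3.9e-04) and 1.64-fold lower in the EV line (adjusted p = 1.8e-04).

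Mvd, the decarboxylase that follows them, Idi1, the isomerase of isopentenyl diphosphate, and Fdps, the farnesyl diphosphate synthase, again fell about as far as Hmgcs1. Mvd had 14.6, 11.4 and 10.8 CPM in the Wisp1 line on collagen, against 26.7, 29.2 and 22.9 CPM on plastic, and 13.5, 11.4 and 12.8 CPM in the EV line on collagen, against 25.1, 26.8 and 23.4 CPM on plastic. Idi1 had 58.6, 43.2 and 47.6 CPM in the Wisp1 line on collagen, against 114, 123 and 99.7 CPM on plastic, and 54.5, 42.5 and 49.5 CPM in the EV line on collagen, against 117, 109 and 98.9 CPM on plastic. Fdps had 114, 74.5 and 74.5 CPM in the Wisp1 line on collagen, against 189, 208 and 181 CPM on plastic, and 95, 71.3 and 86.5 CPM in the EV line on collagen, against 189, 204 and 179 CPM on plastic. None of the 3 genes had a collagen library as high as a plastic one. Mvd was 2.08-fold lower in the Wisp1 line (adjusted p = 1.9e-05) and 1.96-fold lower in the EV line (adjusted p = 3.5e-05), Idi1 2.2-fold lower in the Wisp1 line (adjusted p = 3.7e-05) and 2.18-fold lower in the EV line (adjusted p = 4.4e-05), and Fdps 2.15-fold lower in the Wisp1 line (adjusted p = 5e-04) and 2.22-fold lower in the EV line (adjusted p = 4.2e-04). Ggps1, which turns farnesyl diphosphate into the donor for protein geranylgeranylation, had the smallest change of the 8. Ggps1 had 24.8, 24.7 and 25.9 CPM in the Wisp1 line on collagen, against 26.5, 28.3 and 27.7 CPM on plastic, and 26.1, 26 and 26.5 CPM in the EV line on collagen, against 29.7, 27.8 and 30.3 CPM on plastic. Its log2 change was −0.10 ± 0.05 SE in the Wisp1 line, which was not called (adjusted p = 0.1), and −0.13 ± 0.05 SE in the EV line, which was (adjusted p = 0.047). The call of Ggps1 in the EV line ended without EV plastic replicate 1 or 3 (adjusted p = 0.13 and 0.14) and without any of EV collagen replicates 1, 2 and 3 (0.095, 0.12 and 0.088). Other settings ended it too, with the adjusted p reaching 0.055 with library totals in place of TMM and 0.13 with no filter on low counts. With only the 6 EV libraries in the fit it was 0.081, and with all 18 0.37.

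**Figure D2:**
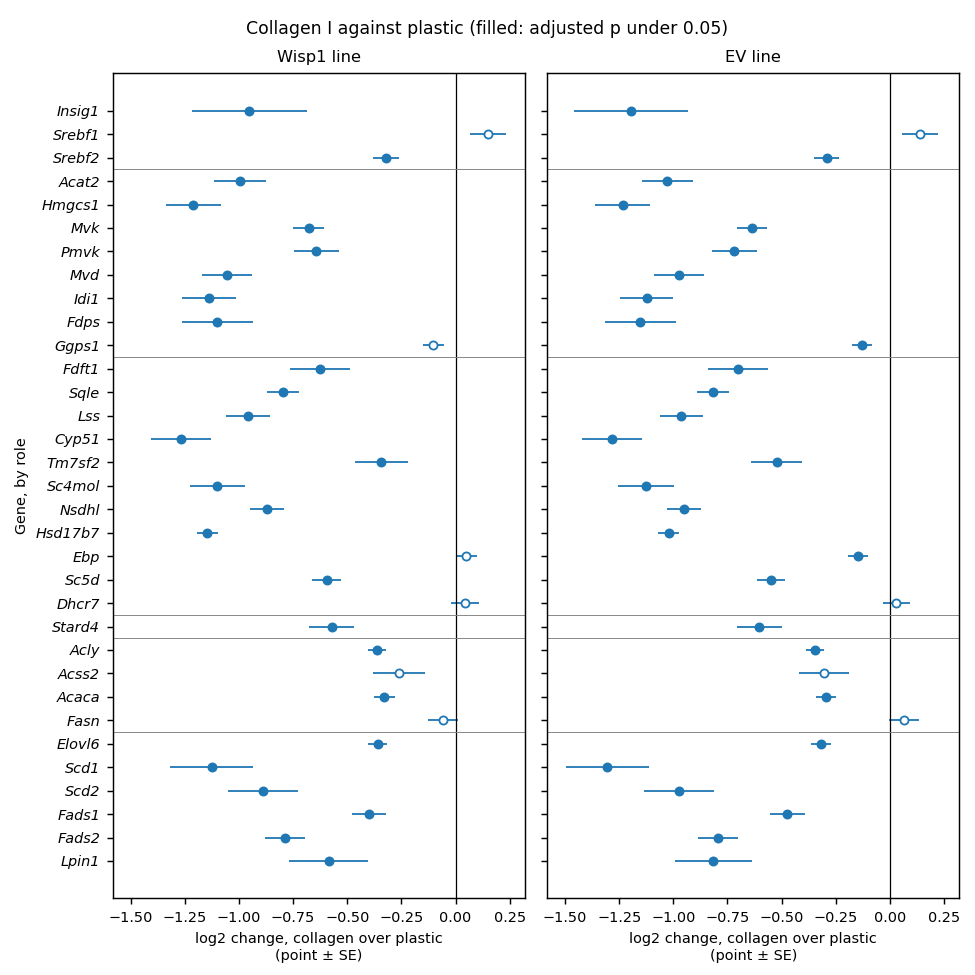
Points are log2 changes of collagen over plastic for the 33 genes in the Wisp1 line (left) and the EV line (right), with bars of 1 SE; filled points passed an adjusted p of 0.05. Genes run down by role, and only Srebf1, Dhcr7, Ebp, Fasn, Ggps1 and Acss2 have an open point in at least 1 line.

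Of the 11 squalene and sterol genes, 9 were lower on collagen in the Wisp1 line and 10 in the EV line. Fdft1, the squalene synthase, was 1.55-fold lower in the Wisp1 line (adjusted p = 0.0043) and 1.62-fold lower in the EV line (adjusted p = 0.0024). An exon of Fdft1 overlaps the cathepsin gene Ctsb on the opposite strand in GENCODE M21, and Ctsb was called higher on collagen in both lines (log2 change 0.47 in Wisp1 and 0.33 in EV); the strand setting of the counting is not given, so the reads of the 2 genes cannot be told apart there. Hmgcs1, Idi1, Lss, Cyp51, Srebf1 and Acss2 likewise have exons that overlap another gene on the opposite strand, and Fdps, Tm7sf2 and Scd2 one on the same strand, in Scd2 a microRNA gene, so their counts are uncertain to that extent. Sqle had 126, 104 and 107 CPM in the Wisp1 line on collagen, against 196, 216 and 186 CPM on plastic, and 116, 105 and 117 CPM in the EV line on collagen, against 202, 211 and 193 CPM on plastic. Sqle, the squalene epoxidase that controls a rate-limiting step, was 1.74-fold lower in the Wisp1 line (adjusted p = 4.1e-06) and 1.76-fold lower in the EV line (adjusted p = 3.2e-06). Lss had 49.9, 41.1 and 40.1 CPM in the Wisp1 line on collagen, against 87.5, 92.9 and 80 CPM on plastic, and 46.2, 37.3 and 43.6 CPM in the EV line on collagen, against 86.5, 89.5 and 76.5 CPM on plastic. Lss, which closes the sterol rings to give lanosterol, was 1.94-fold lower in the Wisp1 line (adjusted p = 1.6e-05) and 1.95-fold lower in the EV line (adjusted p = 1.5e-05), with no overlap between substrates.

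The enzymes that trim lanosterol toward cholesterol did not change evenly. Cyp51, the lanosterol demethylase, and Sc4mol, the methylsterol oxidase, were among the largest falls. Cyp51 had 81.2, 55.1 and 59.8 CPM in the Wisp1 line on collagen, against 160.3, 177 and 145 CPM on plastic, and 75.1, 58.1 and 69 CPM in the EV line on collagen, against 169, 173 and 159 CPM on plastic. Sc4mol had 86.3, 62.8 and 66.1 CPM in the Wisp1 line on collagen, against 154, 175 and 142 CPM on plastic, and 81.3, 64.5 and 70.8 CPM in the EV line on collagen, against 167, 168 and 147 CPM on plastic. Cyp51 was 2.41-fold lower in the Wisp1 line (adjusted p = 5.2e-05) and 2.44-fold lower in the EV line (adjusted p = 5.1e-05), and Sc4mol 2.14-fold lower in the Wisp1 line (adjusted p = 6.5e-05) and 2.18-fold lower in the EV line (adjusted p = 6e-05). Hsd17b7 had 20.6, 20.7 and 21 CPM in the Wisp1 line on collagen, against 48.6, 47.3 and 45 CPM on plastic, and 20.8, 19.6 and 21.6 CPM in the EV line on collagen, against 42.8, 41.6 and 43.9 CPM on plastic. Hsd17b7, a sterol ketoreductase, varied little within a group and was 2.21-fold lower in the Wisp1 line (adjusted p = 7e-09) and 2.03-fold lower in the EV line (adjusted p = 1.8e-08). The sterol dehydrogenase Nsdhl was 1.83-fold lower in the Wisp1 line (adjusted p = 2.7e-06) and 1.93-fold lower in the EV line (adjusted p = 1.1e-06), and the sterol desaturase Sc5d 1.51-fold lower in the Wisp1 line (adjusted p = 1.4e-05) and 1.46-fold lower in the EV line (adjusted p = 2.8e-05). Tm7sf2, a sterol reductase and the least counted of the 33 genes, was 1.27-fold lower in the Wisp1 line (adjusted p = 0.036) and 1.44-fold lower in the EV line (adjusted p = 0.0033). Its call in the Wisp1 line ended without Wisp1 plastic replicates 1, 2 or 3 (adjusted p = 0.076, 0.11 and 0.053) and without Wisp1 collagen replicates 2 or 3 (0.089 and 0.12). The call was also lost there with limma-voom (adjusted p = 0.054) and with library totals in place of TMM (0.06). With all 18 libraries in one fit Tm7sf2 was not called in either line (adjusted p = 0.27 in Wisp1 and 0.11 in EV).

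Dhcr7 and Ebp were the exceptions of the sterol steps. Dhcr7 had 55.1, 47.6 and 46.3 CPM in the Wisp1 line on collagen, against 45.9, 50.4 and 51.1 CPM on plastic, and 50.6, 46.9 and 51.3 CPM in the EV line on collagen, against 47.3, 50.4 and 50.7 CPM on plastic. Dhcr7, which catalyses the last step to cholesterol, had overlapping libraries on the 2 substrates in both lines, and its log2 change was 0.05 ± 0.06 SE in the Wisp1 line (adjusted p = 0.6) and 0.03 ± 0.06 SE in the EV line (0.74). Ebp, the sterol isomerase, had 34.7, 31.5 and 33.2 CPM in the Wisp1 line on collagen, against 32.9, 32.5 and 32.5 CPM on plastic, and was not called (log2 change 0.05, adjusted p = 0.43). In the EV line it had 29.1, 28.1 and 30.5 CPM on collagen, against 32.7, 32.4 and 33.9 CPM on plastic, a fall of 1.11-fold (adjusted p = 0.025). That call ended without EV plastic replicate 1 or 3 (adjusted p = 0.059 and 0.074) and without EV collagen replicate 1 or 2 (0.059 and 0.11). With no filter on low counts it was 0.069, and with all 18 libraries in one fit 0.58. Whether the change of Ebp differed between lines was tested as the interaction, which was not called (adjusted p = 0.97). Stard4, a soluble carrier that moves sterol between membranes, fell with the synthetic genes. Stard4 had 58.6, 44.7 and 47.6 CPM in the Wisp1 line on collagen, against 76, 83 and 70.6 CPM on plastic, and 55, 43.4 and 47.8 CPM in the EV line on collagen, against 74.1, 79.5 and 72.5 CPM on plastic. It was 1.49-fold lower in the Wisp1 line (adjusted p = 0.001) and 1.52-fold lower in the EV line (adjusted p = 7.9e-04).

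**Figure D3:**
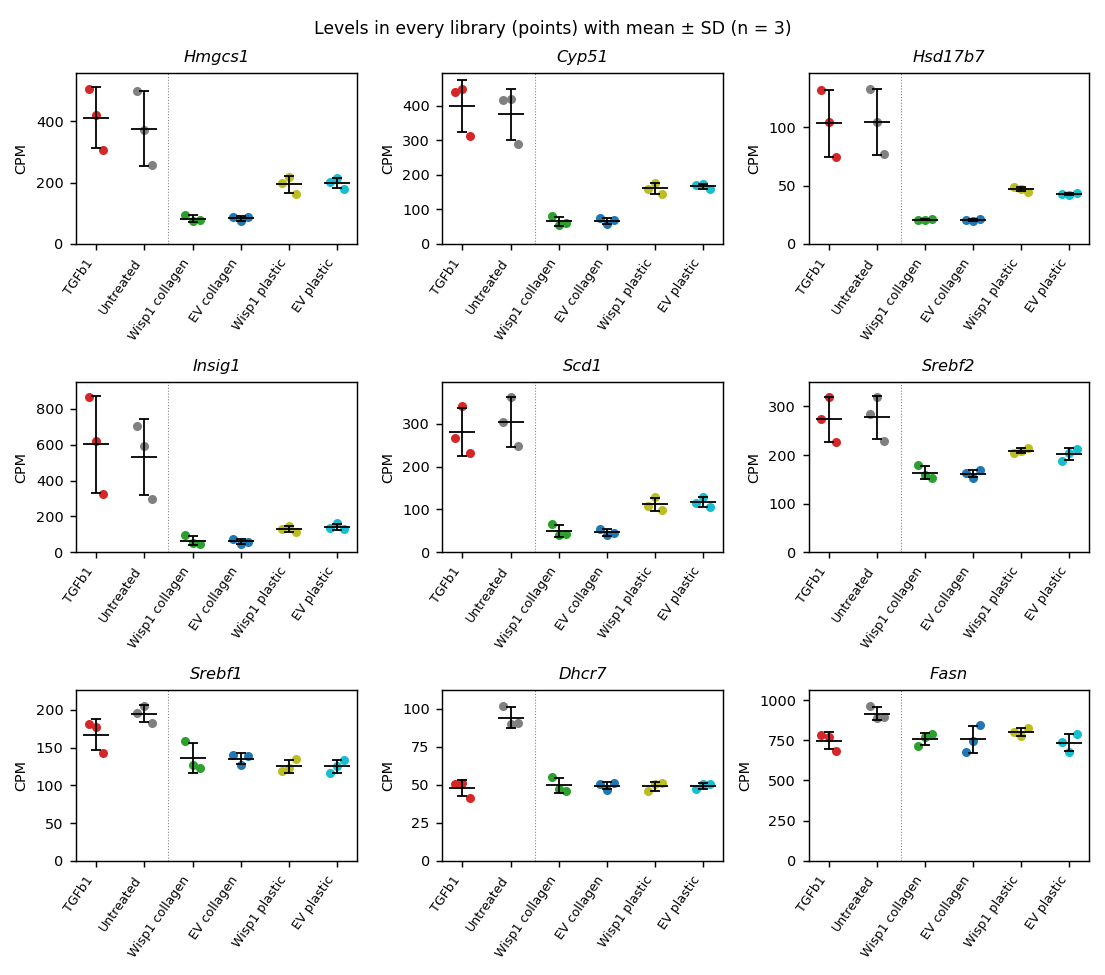
CPM of 9 genes in every library of the 6 groups (points, n = 3), with mean and SD as horizontal lines and bars; the dotted line separates parental cells from the stable lines. Hmgcs1, Cyp51, Hsd17b7, Insig1 and Scd1 are lower on collagen than on plastic in both lines, whereas Srebf1, Dhcr7 and Fasn overlap.

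Of the 4 genes that make the saturated chain, Acly and Acaca were lower on collagen in both lines, and Acss2 and Fasn were called in neither. Acly, the citrate lyase that supplies acetyl-CoA, was 1.29-fold lower in the Wisp1 line (adjusted p = 1.6e-05) and 1.27-fold lower in the EV line (adjusted p = 2.4e-05). Acaca had 141, 149 and 152 CPM in the Wisp1 line on collagen, against 189, 191 and 185 CPM on plastic, and 138, 145 and 159 CPM in the EV line on collagen, against 186, 179 and 187 CPM on plastic. Acaca, the acetyl-CoA carboxylase, was 1.26-fold lower in the Wisp1 line (adjusted p = 1.4e-04) and 1.23-fold lower in the EV line (adjusted p = 3.6e-04), with no overlap between substrates. Fasn had 713, 767 and 786 CPM in the Wisp1 line on collagen, against 803, 773 and 825 CPM on plastic, and 679, 743 and 843 CPM in the EV line on collagen, against 739, 679.8 and 788 CPM on plastic. Fasn, the fatty acid synthase, overlapped between substrates, with a log2 change of −0.06 ± 0.07 SE in the Wisp1 line (adjusted p = 0.55) and 0.07 ± 0.07 SE in the EV line (0.49). Acss2, which makes acetyl-CoA from acetate, had log2 changes of −0.26 ± 0.12 SE in Wisp1 (adjusted p = 0.096) and −0.31 ± 0.12 SE in EV (0.056).

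All 6 genes of desaturation, elongation and lipid assembly were lower on collagen in both lines. Scd1 and Scd2 encode stearoyl-CoA desaturases, which make monounsaturated fatty acids. Scd1 had 66.2, 41.2 and 42.3 CPM in the Wisp1 line on collagen, against 107, 128 and 99.7 CPM on plastic, and 54.5, 39.6 and 45.8 CPM in the EV line on collagen, against 115, 130.1 and 107 CPM on plastic. Scd2 had 1190.3, 783 and 774 CPM in the Wisp1 line on collagen, against 1655, 1858 and 1678 CPM on plastic, and 1028, 748 and 930.3 CPM in the EV line on collagen, against 1730.4, 1869 and 1817 CPM on plastic. Scd1 was 2.18-fold lower in the Wisp1 line (adjusted p = 0.0013) and 2.47-fold lower in the EV line (adjusted p = 5.9e-04), and Scd2 1.85-fold lower in the Wisp1 line (adjusted p = 0.0016) and 1.96-fold lower in the EV line (adjusted p = 0.0011). The Scd genes are close paralogs, and how reads with several alignments were treated is not given, so their counts may be shared in part. Fads1 and Fads2, the desaturases of polyunsaturated fatty acids, were also lower: Fads1 was 1.32-fold lower in the Wisp1 line (adjusted p = 0.0014) and 1.39-fold lower in the EV line (adjusted p = 4.7e-04), and Fads2 1.73-fold lower in the Wisp1 line (adjusted p = 3.7e-05) and 1.73-fold lower in the EV line (adjusted p = 3.7e-05). Lpin1, a phosphatidate phosphatase of glycerolipid assembly, was 1.5-fold lower in the Wisp1 line (adjusted p = 0.024) and 1.76-fold lower in the EV line (adjusted p = 0.0044). In the Wisp1 line its call ended without Wisp1 plastic replicate 2 (adjusted p = 0.074) and without Wisp1 collagen replicates 2 or 3 (0.076 and 0.076), with no filter on low counts (0.08) and with only the 6 libraries of that line (0.051). Elovl6, which lengthens palmitate, was 1.28-fold lower in the Wisp1 line (adjusted p = 4.2e-05) and 1.25-fold lower in the EV line (adjusted p = 1.2e-04). It was not called with all 18 libraries in the fit (adjusted p = 0.062 in Wisp1 and 0.11 in EV).

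Within each group the genes moved together from library to library. On collagen, replicate 1 was the highest of the 3 libraries for 29 of 33 genes in the Wisp1 line and 21 in the EV line, and EV replicate 2 was the lowest for 29. On plastic, replicate 2 was the highest for 27 genes in the Wisp1 line and 21 in the EV line. The genes are therefore not independent of each other. Such orders were not counted over all genes, so whether they are particular to these 33 was not tested. Without Wisp1 collagen replicate 1 the median log2 change of the 33 in the Wisp1 line was −0.81 against −0.64 with it, and 28 genes were called lower. With all 18 libraries in one fit, 23 genes were called lower in the Wisp1 line and 24 in the EV line.

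In the labels each of the 6 groups carries a series number of its own, whose meaning is not stated. Any difference in preparation that these numbers mark cannot be told apart from substrate, and likewise not from Wisp1 against EV or TGFb1 against untreated. The 6 leukocyte markers summed to 12.8 to 19.9 CPM in the Wisp1 line on collagen, against 8.21 to 12.5 CPM on plastic, and 10.4 to 15.2 CPM in the EV line on collagen, against 7.61 to 9.78 CPM on plastic. In each of these 4 groups 4 of the 6 averaged below 1 CPM, and 2 had no reads. The 6 fibroblast markers summed to 26.7 to 33.3 CPM in the Wisp1 line on collagen, against 17 to 19.2 CPM on plastic, and 25.2 to 30 CPM in the EV line on collagen, against 16.4 to 22 CPM on plastic. In each of the 4 groups 5 of the 6 averaged below 1 CPM, and 1 or 2 had no reads. The part of either list in the results was not tested.

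Other lipid genes, taken from lists that hold none of the 33, changed in both directions. Their counts are to be read against all genes tested, of which 21.3% rose and 19.1% fell on collagen in the Wisp1 line, and 19.2% rose and 17.3% fell in the EV line. Genes that supply, elongate or activate fatty acids fell in part, 10 of 18 tested in the Wisp1 line with 1 higher, and 9 of 18 in the EV line with none higher. Their median log2 change was −0.23 in Wisp1 and −0.27 in EV. Elovl5, an elongase of polyunsaturated chains, was 1.28-fold lower in the Wisp1 line (adjusted p = 7.3e-06) and 1.28-fold lower in the EV line (7.3e-06), and the acyl-CoA synthetase Acsl3 1.45-fold lower in the Wisp1 line (adjusted p = 1.2e-04) and 1.53-fold lower in the EV line (4.4e-05). Scd3, a further desaturase of the Scd cluster, was 1.77-fold lower in the Wisp1 line (adjusted p = 1.1e-04) and 1.82-fold lower in the EV line (7.2e-05).

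Among 14 genes of cholesterol uptake, storage and transport, 4 rose and 4 fell on collagen in the Wisp1 line, where 21.3% and 19.1% of all genes did. In the EV line 3 rose and 5 fell, where 19.2% and 17.3% of all genes did. These small counts were not tested against those shares. Soat1 esterifies cholesterol for storage in lipid droplets. Soat1 had 171, 183 and 188 CPM in the Wisp1 line on collagen, against 116, 114 and 116 CPM on plastic, and 166, 169 and 164 CPM in the EV line on collagen, against 112, 105 and 101 CPM on plastic. It was 1.59-fold higher in the Wisp1 line (adjusted p = 3e-07) and 1.6-fold higher in the EV line (2.5e-07), and no collagen library overlapped a plastic one. Stard3, a sterol carrier of late endosomes, was 1.5-fold higher in the Wisp1 line (adjusted p = 1.8e-06) and 1.41-fold higher in the EV line (5.3e-06), and Gramd1a, which carries sterol from the plasma membrane to the endoplasmic reticulum, 1.53-fold higher in the Wisp1 line (adjusted p = 6.5e-06) and 1.5-fold higher in the EV line (9.5e-06). Of the members that fell, 2 are given here after their values were seen. Scarb1, which encodes a receptor for high-density lipoprotein, was 1.25-fold lower in the Wisp1 line (adjusted p = 3.7e-05) and 1.23-fold lower in the EV line (7.8e-05), and Aacs, which activates acetoacetate for lipid synthesis, 1.45-fold lower in the Wisp1 line (adjusted p = 1.9e-05) and 1.34-fold lower in the EV line (1.4e-04). The largest log2 change of the list was that of Soat2 in the EV line, −2.04, which was not called (adjusted p = 0.16) at 0.0897, 0.0151 and 0.0215 CPM on collagen, against 0.0482, 0.311 and 0.058 CPM on plastic.

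Of the 9 SREBP processing genes, 3 rose and 2 fell in the Wisp1 line, where 21.3% and 19.1% of all genes did. In the EV line 2 rose and 2 fell, where 19.2% and 17.3% of all genes did. These counts, too, were not tested against those shares. Mbtps1, the protease that makes the first SREBP cleavage, was 1.14-fold higher in the Wisp1 line (adjusted p = 0.0013) and 1.15-fold higher in the EV line (9e-04). Insig2, the paralog of Insig1, rose 1.34-fold in the Wisp1 line (adjusted p = 0.003) and was not called in the EV line (log2 change 0.18, adjusted p = 0.14); the interaction for Insig2 was not called (adjusted p = 0.97). Erlin2, whose product restrains SREBP activation, was 1.12-fold higher in the Wisp1 line (adjusted p = 0.0093) and 1.11-fold higher in the EV line (0.021). Mbtps2, the protease of the second cleavage, was 1.12-fold lower in the EV line (adjusted p = 0.0045) and not called in the Wisp1 line (log2 change −0.07, adjusted p = 0.16). Paqr3, a Golgi anchor of the SREBP complex, was 1.24-fold lower in the Wisp1 line (adjusted p = 0.03) and 1.33-fold lower in the EV line (0.006).

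The counts of the remaining lists were not tested against the shares of all genes either. In the isoprenoid branch 2 of 10 genes fell in each line, where 19.1% of all genes fell in Wisp1 and 17.3% in EV. They were Pdss2, which serves ubiquinone synthesis, 1.35-fold lower in the Wisp1 line (adjusted p = 2.9e-04) and 1.2-fold lower in the EV line (0.0094), and Nus1, which serves dolichol synthesis, 1.15-fold lower in the Wisp1 line (adjusted p = 0.0021) and 1.1-fold lower in the EV line (0.019). Of the 8 fatty acid oxidation genes tested, none fell and 2 rose in each line, where 21.3% of all genes rose in Wisp1 and 19.2% in EV. The carnitine palmitoyltransferase gene Cpt1a, 1 of the 2, was 1.41-fold higher in the Wisp1 line (adjusted p = 5.6e-04) and 1.23-fold higher in the EV line (0.014). Of 5 LXR and efflux genes tested, 2 rose and 1 fell in the Wisp1 line, where 21.3% and 19.1% of all genes did. In the EV line 1 rose and 1 fell, where 19.2% and 17.3% of all genes did. These genes are too few to read against those shares. Abcg1, a sterol exporter gene, was 2.78-fold higher in the Wisp1 line (adjusted p = 0.0029), with 0.575, 0.434 and 0.696 CPM on collagen, against 0.238, 0.246 and 0.158 CPM on plastic. It was not called in the EV line (log2 change 0.67, adjusted p = 0.087), and its interaction was not called either (adjusted p = 0.97). Nr1h2, which encodes a sterol-sensing LXR receptor, was 1.26-fold higher in the Wisp1 line (adjusted p = 0.0038) and 1.26-fold higher in the EV line (0.0044), and Lpcat3, a phospholipid acyltransferase, 1.14-fold lower in the Wisp1 line (adjusted p = 0.034) and 1.16-fold lower in the EV line (0.015).

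**Figure D4:**
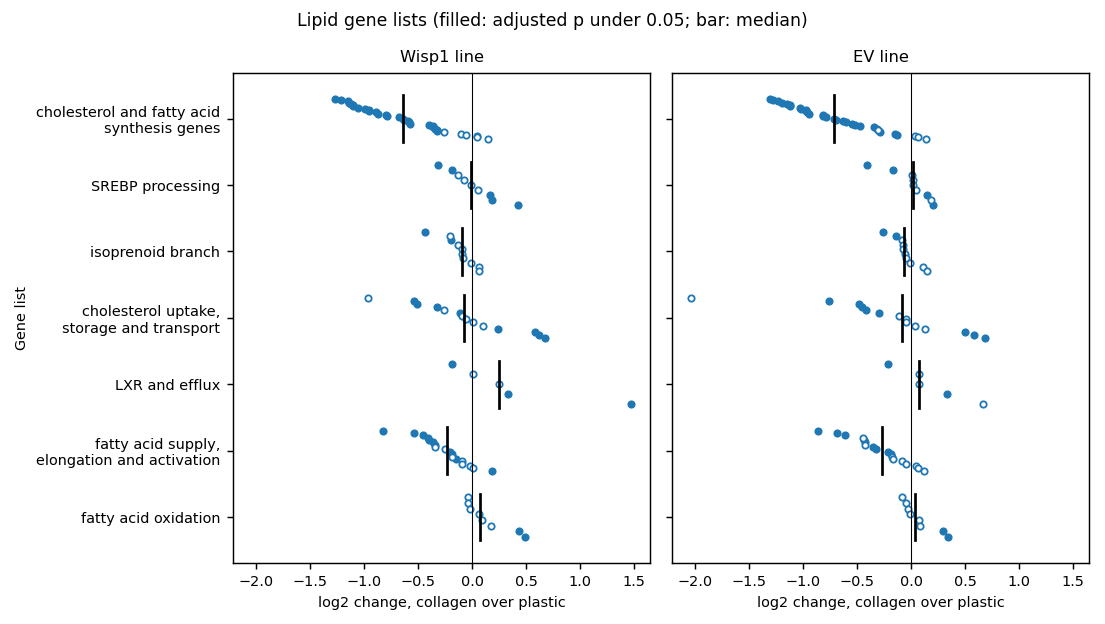
Each point is the log2 change of 1 gene on collagen over plastic in the Wisp1 line (left) and the EV line (right), grouped by list, with filled points at an adjusted p under 0.05 and a bar at the median. The cholesterol and fatty acid synthesis genes have medians of −0.64 in Wisp1 and −0.72 in EV, and the uptake, storage and transport list has calls on both sides of 0.

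Wisp1 overexpression was compared with EV on each substrate. None of the 33 genes was called in the Wisp1 line against EV on plastic or on collagen by edgeR, DESeq2 or limma-voom. In edgeR 1 on each substrate had an unadjusted p under 0.05, as did 822 of all 13953 genes tested on plastic and 707 on collagen. Of all genes tested by edgeR, 0.0143% were called on plastic and 0.0717% on collagen. All Wisp1 libraries lay below all EV libraries for 0 of 33 genes on plastic, against 5.98% of all genes, and for 1 of 33 on collagen, Ggps1, against 3.91%. They lay above for 1 of 33 genes on each substrate, Hsd17b7 on plastic and Ebp on collagen, against 6.5% and 5.51% of all genes. Both genes are described here after their values were seen. Hsd17b7, the gene with the small p on plastic, had 48.6, 47.3 and 45 CPM in the Wisp1 line, against 42.8, 41.6 and 43.9 CPM in EV (log2 change 0.13 ± 0.05 SE, adjusted p = 0.79). Ebp, the one on collagen, had 34.7, 31.5 and 33.2 CPM in the Wisp1 line, against 29.1, 28.1 and 30.5 CPM in EV (log2 change 0.18 ± 0.05 SE, adjusted p = 0.43).

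The size of effect these libraries allow differed between genes. Across the 33 genes the log2 changes of Wisp1 over EV ran from −0.17 to 0.13 on plastic and from −0.06 to 0.18 on collagen. Insig1 had the widest 95% intervals, from −0.72 to 0.46 on plastic and from −0.48 to 0.71 on collagen. For Hmgcs1 the intervals ran from −0.31 to 0.24 on plastic and from −0.29 to 0.26 on collagen, and for Acaca from −0.07 to 0.14 and from −0.10 to 0.10. In a fit that pairs libraries of the same number within a substrate, 2 genes were called. Fasn was 1.09-fold higher in the Wisp1 line on plastic (adjusted p = 0.034, against 0.83 unpaired) and Ebp 1.13-fold higher on collagen (0.017, against 0.43), where 2.08% and 1.63% of all genes were called higher. With the replicate number as a block over all 4 groups neither was called.

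Whether collagen acted differently in the Wisp1 line and in EV was tested as the interaction. None of the 33 genes was called by edgeR, DESeq2 or limma-voom, where edgeR called 0% of all genes. In edgeR 1 of the 33, Ebp, had an unadjusted p under 0.05, as did 410 of all 13953 genes tested. With the pairs as a block within each substrate none of the 33 was called either, against 0.502% of all genes. The log2 differences of the Wisp1 effect on collagen minus that on plastic ran from −0.12 to 0.24. Their 95% intervals were widest for Insig1, from −0.59 to 1.08. For Hmgcs1 the interval ran from −0.37 to 0.41, and for Sqle from −0.21 to 0.24.

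In parental cells, in the unpaired fit, TGFb1 lowered 2 of 33 genes, Dhcr7 and Elovl6, and raised none. In that fit 4.92% of all genes tested fell and 6.14% rose. With the replicate pairs as a block, described below, 10 of 33 fell and 3 rose, against 22.5% and 22.4% of all genes. The values in this paragraph are from the unpaired fit. The median log2 change of the 33 was −0.07, against −0.01 over all genes tested. Dhcr7 had 50.7, 50.9 and 41.7 CPM with TGFb1, against 102, 89.9 and 90.7 CPM untreated. The 3 treated libraries lay well below the 3 untreated ones, at 47.8 ± 5.25 CPM with TGFb1 against 94.2 ± 6.81 CPM untreated (SD, n = 3 each), a fall of 2-fold (log2 change −0.997 ± 0.12 SE, adjusted p = 0.0056). Elovl6 had 188, 189 and 129 CPM with TGFb1, against 357, 370.2 and 260.2 CPM untreated. It did not overlap either and was 1.98-fold lower (log2 change −0.98 ± 0.20 SE, adjusted p = 0.027). The call of Elovl6 ended without untreated replicate 1 (adjusted p = 0.076), untreated replicate 2 (0.12), TGFb1 replicate 2 (0.087) and TGFb1 replicate 3 (0.053). That of Dhcr7 held in every fit run. All 3 treated libraries lay below all 3 untreated ones for 6 of 33 genes, against 14.2% of all genes. The 6 fibroblast markers summed to 56.4 to 71.3 CPM with TGFb1, against 35.7 to 59.3 CPM untreated, with 2 of the 6 averaging below 1 CPM in treated cells and 5 in untreated cells, and none without reads in either. Their part in the results was not tested.

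These 2 genes were not the ones that fell furthest on collagen: Dhcr7 was not called there, and Elovl6 was 1.28-fold lower in the Wisp1 line and 1.25-fold in EV. Insig1, Hmgcs1, Sqle, Srebf2, Scd1 and Scd2 were not called with TGFb1 in the unpaired fit. Insig1 had 864, 619 and 323 CPM with TGFb1, against 704, 595 and 298 CPM untreated. Hmgcs1 had 506, 419 and 307 CPM with TGFb1, against 499, 373 and 257 CPM untreated. Sqle had 361, 379 and 269.9 CPM with TGFb1, against 403, 405 and 283 CPM untreated. In each of these genes the groups overlapped, and replicate 3 was the lowest library of both. Replicate 3 was the lowest for 31 of 33 genes in treated cells and 29 of 33 in untreated cells. That order was not counted over all genes. Srebf2 had 274, 318 and 227 CPM with TGFb1, against 283, 319 and 229 CPM untreated. Scd1 had 267, 341 and 231 CPM with TGFb1, against 304, 362 and 247 CPM untreated. Scd2 had 3142, 3365 and 2493 CPM with TGFb1, against 2808, 2910.5 and 2052 CPM untreated. These 3 overlapped as well.

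Treated and untreated libraries share a code by replicate number, and such pairs deviated together, so the pairs were also used as a block. With that block 10 of 33 genes fell and 3 rose, where 22.5% and 22.4% of all genes did. Beside Dhcr7 and Elovl6 (adjusted p = 8.5e-05 and 2e-05), the falls included Lss, 1.49-fold (adjusted p = 3.7e-04 against 0.16 unpaired), Stard4, 1.33-fold (7.8e-04 against 0.12), and Idi1, 1.3-fold (7.8e-04 against 0.25). Stard4 had 121, 128 and 101 CPM with TGFb1, against 167, 165 and 131 CPM untreated. Fasn had 781, 772 and 686 CPM with TGFb1, against 964, 889 and 894 CPM untreated. Neither gene overlapped between groups, and Fasn was 1.24-fold lower (adjusted p = 0.0027 against 0.082). Srebf1 had 181, 177 and 143 CPM with TGFb1, against 196, 205 and 183 CPM untreated. Acaca had 144, 142 and 133 CPM with TGFb1, against 159.7, 151 and 150.2 CPM untreated. Both were without overlap and lower by small folds, Srebf1 1.18-fold (adjusted p = 0.012 against 0.27) and Acaca 1.11-fold (0.037 against 0.32). Sc4mol (1.19-fold, adjusted p = 0.0042 against 0.67) and Acat2 (1.11-fold, 0.037 against 0.76) completed the falls. The rises were Nsdhl, 1.21-fold (adjusted p = 0.0077 against 0.6), Ggps1, 1.18-fold (0.023 against 0.4), and Scd2, 1.15-fold (0.015 against 0.58). Counted by direction alone, 18 of 33 genes were lower in 3 of 3 pairs and 9 higher in 3 of 3, against 33.8% and 36.3% of all genes tested.

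**Figure D5:**
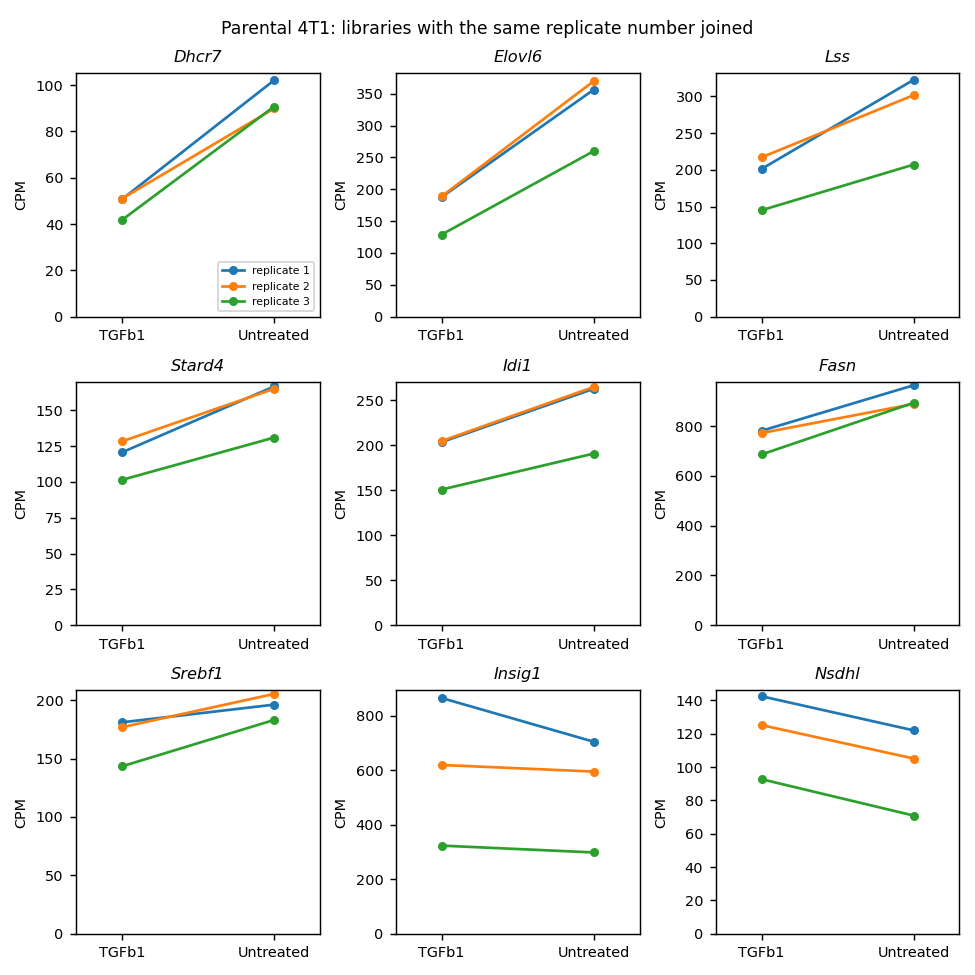
CPM of 9 genes in parental cells given TGFb1 (left of each panel) and left untreated (right), with libraries of the same replicate number joined by a line. Dhcr7 and Elovl6 are lower with TGFb1 in every pair, Nsdhl is higher in every pair, and replicate 3 is the lowest library of Insig1 in both groups.

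The other lipid lists gave 4 calls with TGFb1 in the unpaired fit, where 4.92% of all genes fell and 6.14% rose. Mylip, which encodes a ubiquitin ligase of lipoprotein receptors, had 23.8, 19.6 and 21.6 CPM with TGFb1, against 8.47, 9.38 and 8.02 CPM untreated, and rose 2.48-fold (adjusted p = 0.0046). The cholesterol exporter gene Abca1 fell 3.82-fold at low expression (0.0963, 0.164 and 0.101 CPM with TGFb1, against 0.609, 0.511 and 0.263 CPM untreated, adjusted p = 0.042). These were the 2 calls among 6 LXR and efflux genes tested. Erlin1, the partner of Erlin2, was 1.8-fold lower (adjusted p = 0.0055), the 1 call among 9 SREBP processing genes. Of the 13 genes listed under uptake, storage and transport, 1 was called, Acat1, 1.55-fold lower (adjusted p = 0.022). Acat1 encodes the mitochondrial acetoacetyl-CoA thiolase, which neither takes up nor esterifies nor carries cholesterol. None of 10 isoprenoid branch, 18 fatty acid supply and 8 oxidation genes was called by edgeR. An unadjusted p under 0.05 was found for 1, 4 and 1 of them, and for 3708 of all 14874 genes tested.

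With the pairs as a block the same lists gave more calls, as did all genes, of which 22.5% fell and 22.4% rose. With it, 4 fell and 2 rose of 9 SREBP processing genes, 5 fell and 3 rose of 13 uptake, storage and transport genes, and 1 fell and 3 rose of 6 LXR and efflux genes. In the other lists, 3 fell and 0 rose of 10 isoprenoid branch genes, 6 fell and 1 rose of 18 fatty acid supply genes, and 1 fell and 2 rose of 8 oxidation genes.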

How the data were processed

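The authors deposited raw counts per gene symbol for 18 libraries, with no normalization. Per the submitters' processing notes, the mouse build was mm9 and the tools HTSeq, STAR, BWA, CASAVA, R 3.2.4 and limma, whose roles are not listed. Neither the annotation nor the strand setting is stated there. Libraries were made with a stranded poly(A) kit, per the labels. The 5 summary entries, 13.9 to 17.5% of a library, were left out of totals and tests, and the entry for reads with several alignments was 0 in every library.

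Genes were filtered with filterByExpr, scaled by TMM and tested with robust quasi-likelihood F tests in edgeR 4.0.16 under R 4.3.3, leaving 14874 genes in the 6 parental libraries and 13953 in the 12 of the stable lines, each fitted by group. Each standard error was the absolute log2 change divided by the root of its F value. CPM were computed from TMM factors over all 18 libraries. Alternatives were DESeq2 1.42.0, limma-voom (limma 3.58.1), other scaling and filters, other sets of libraries, blocks by replicate number, and leaving out each library. The fit by group was also run on simulated counts. These were drawn gene by gene, without pairs and without genes that move together, so that run does not bear on either.

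The genes and lists were chosen with earlier results of these data known. Values in every library are given for the called genes with the largest changes, up to 12 per comparison, and for 10 regulators and rate-setting genes; from other lists up to 3 called genes with the smallest p are named per comparison, except for a result that is not reported here. Pairing was checked by correlating deviations from group means between libraries of the same number, with 0.1 as the minimum in every pair. The correlations were 0.79, 0.55 and 0.78 for TGFb1 and untreated. For Wisp1 and EV they were 0.12, 0.21 and 0.22 on plastic and 0.47, 0.15 and 0.34 on collagen. All these numbers were therefore used as pairs, but only in the alternative fits with a block. The main fits were by group alone. Treated and untreated titles also share a code.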

Additional observations from a re-analysis of the deposited data

How the results depend on the processing

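Of the calls of the 33 genes, none changed direction under any alternative run. On collagen against plastic, 22 of 27 calls in the Wisp1 line and 24 of 29 in the EV line held in every alternative, and the counts of genes called lower stayed between 23 and 28 in the Wisp1 line and between 24 and 30 in the EV line. For TGFb1 the count called lower was 5 with all 18 libraries in one fit, 10 with the replicate block (with 3 higher) and 1 to 2 with a library left out, against 2. The count of all genes called by TGFb1 was 2910 by DESeq2, 4865 with 18 libraries, 6672 with the replicate block and 380 (without untreated replicate 2) to 1018 (without untreated replicate 1) with any library but TGFb1 replicate 1 left out, against 1645. For Wisp1 against EV the replicate block within each substrate called 1 gene higher on plastic and 1 on collagen, against 0 each, and 440 and 358 of all genes, against 2 and 10. With all 18 libraries in one fit, the count of all genes called on collagen was 2071 in Wisp1, against 5641, and 1629 in EV, against 5095. For Wisp1 against EV, DESeq2 called 18 on plastic and 40 on collagen, and no filter on low counts gave 32 on collagen; the other fits gave 0 to 2 on plastic and 2 to 18 on collagen. The interaction called 70 genes with the block within each substrate and at most 1 in any other fit, against 0. Collagen and plastic libraries of the same number share only that number, as do those of Wisp1 and EV. Correlations between collagen and plastic libraries ran from −0.13 to 0.28 in EV and from −0.07 to −0.01 in Wisp1. The replicate block over all 4 groups gave 28 genes lower in Wisp1 and 30 in EV. The causes were not tested. Each of the 33 genes had at least 177 reads in every library.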

Other observations

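Untreated parental cells held more of these transcripts than the EV line on plastic. All 3 untreated libraries were above all 3 EV libraries for 30 of 33 genes, where 28.7% of all genes lay so, and the median ratio of group means was 2.03, against 1.03 over all genes. The ratio was 4.65 for Tm7sf2, 3.75 for Insig1 and 3.29 for Lss. It was 1.24 for Fasn and 1.37 for Srebf2, while Ggps1 and Mvk overlapped between the groups. Acaca was lower in untreated cells, at 159.7, 151 and 150.2 CPM against 186, 179 and 187 CPM in EV. The genes named here were chosen after their values were seen. Transduction, selection, medium change and sample series differ together between these groups and cannot be told apart, so no test was made.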
